A study of Mus musculus with 6 samples.

Results

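The 4 butyrophilin-like genes of the gut epithelium and 4 gamma-delta T cell receptor genes were followed through single-cell RNA sequencing of mouse small intestinal mucosa. The members were Btnl1, Btnl2, Btnl4 and Btnl6 on the epithelial side, and Trgv2, Trgv7, Trgc1 and Trdc on the lymphocyte side, 8 of 32285 features. They were taken by symbol, except that the gene tables list Trgv7 and Trgc1 under the synonyms Tcrg-V7 and Tcrg-C1. Btnl RNA was counted in epithelial cell classes and along the villus, and receptor RNA in CD3-positive barcodes, which hold at least 1 UMI (unique molecular identifier, 1 captured RNA molecule) of Cd3d, Cd3e or Cd3g in a T or NK-like cluster.

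The study deleted HuR, an RNA-binding protein encoded by Elavl1, in the intestinal epithelium and asked what its loss does to the cells of the mucosa. There were 3 droplet libraries from control littermates and 3 from IE-HuR-/- mice, all on a C57BL/6 background at 6 to 8 weeks of age. Per the study's methods, both groups carried the HuR fl/fl alleles, the IE-HuR-/- mice carried villin-Cre in addition, and the controls, which the sample labels call wild-type, lacked Cre. The villin promoter drives Cre in epithelial cells of the intestine and not in lymphocytes, so the receptor genes were read in cells in which the deletion was not directed. Cells were released from small intestinal mucosa, and the stretch of intestine used for these libraries is not given in the sources used here. The methods state that food was withheld, whereas the labels state normal feeding.

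Btnl1 and Btnl6 form a pair of surface proteins on mouse enterocytes that is recognised by the gamma-delta receptor carrying the V gamma 7 segment, and this pair selects and maintains the V gamma 7 intraepithelial lymphocytes that lie between villus epithelial cells. Btnl4 is a near relative of Btnl6 that can also pair with Btnl1, and Btnl2 is a family member for which inhibition of T cell activation has been described. A gamma-delta receptor joins a gamma chain, made of a V segment such as Trgv7 and a constant region such as Trgc1, to a delta chain that ends in the constant region Trdc. Alpha-beta T cells can still transcribe gamma chain genes, and RNA of a receptor gene is not by itself a mark of a surface receptor.

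The 4 Btnl genes lie side by side on chromosome 17 (GRCm38). Btnl2 spans positions 34354822 to 34369495 and Btnl1 34377132 to 34386028 on the plus strand, and Btnl4 spans 34466562 to 34477318 and Btnl6 34507804 to 34517352 on the minus strand. The 250 bases before each RefSeq start (GRCm38.p6) are shown because the genes share an expression domain, the villus epithelium, and because the sequences show which members are near copies. Capitals mark CAAAGTCC, the letters of a half-site type bound by HNF4 factors, which was picked after the sequences had been seen and was searched on both strands. The windows are chr17:34376882-34377131 (plus strand) for Btnl1, chr17:34354572-34354821 (plus strand) for Btnl2, chr17:34475938-34476187 (minus strand) for Btnl4 and chr17:34517353-34517602 (minus strand) for Btnl6.
Btnl1: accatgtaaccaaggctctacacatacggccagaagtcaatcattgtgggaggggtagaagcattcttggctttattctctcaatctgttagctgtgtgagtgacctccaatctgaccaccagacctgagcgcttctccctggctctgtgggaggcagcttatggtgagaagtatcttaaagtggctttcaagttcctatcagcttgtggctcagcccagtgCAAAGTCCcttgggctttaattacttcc
Btnl2: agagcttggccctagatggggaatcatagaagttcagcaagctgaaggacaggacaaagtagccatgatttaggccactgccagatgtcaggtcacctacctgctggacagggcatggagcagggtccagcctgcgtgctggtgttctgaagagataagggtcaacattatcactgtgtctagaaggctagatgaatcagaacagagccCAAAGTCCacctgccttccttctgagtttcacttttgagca
Btnl4: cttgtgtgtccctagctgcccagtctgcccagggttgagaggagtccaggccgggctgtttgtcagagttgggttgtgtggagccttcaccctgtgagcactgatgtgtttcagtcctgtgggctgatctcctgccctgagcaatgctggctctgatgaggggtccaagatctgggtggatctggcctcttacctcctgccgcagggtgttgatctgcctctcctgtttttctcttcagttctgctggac
Btnl6: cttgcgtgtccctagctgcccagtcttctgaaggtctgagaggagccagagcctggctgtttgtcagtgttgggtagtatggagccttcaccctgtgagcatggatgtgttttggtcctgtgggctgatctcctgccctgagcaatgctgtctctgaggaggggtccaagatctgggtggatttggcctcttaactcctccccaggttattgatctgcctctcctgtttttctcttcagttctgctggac
The CAAAGTCC letters began 28 bases before the start of Btnl1 and 41 bases before that of Btnl2, and were not found in the windows of Btnl4 and Btnl6. They occur in 393 of 32851 mouse promoter windows (1.2%). A GATA-type word, AGATAA, was found 98 bases before the start of Btnl2 alone and is present in 9.99% of windows, and a CDX-type word, TTTATNG, was found in none of the 4 and is present in 9.81%. The Btnl4 and Btnl6 windows were identical at 228 of 252 aligned positions (90.5%), whereas every other pair shared 50.4% to 52.4%. The RefSeq start of Btnl4 lies 1381 bases inside the gene as GENCODE draws it, so its window is not upstream of the longest annotated transcript.

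Few exonic stretches of the Btnl genes are found in other genes. Of all stretches of 90 exonic bases, those found in another gene too made up 4.9% for Btnl4 (Btnl5-ps and Btnl7-ps), 0.662% for Btnl6 (Btnl7-ps) and none for Btnl1 and Btnl2, so that reads of Btnl4 and Btnl6 could be told apart. The receptor genes lie on chromosomes 13 (Trgv7 at 19178024 to 19178492 and Trgc1 at 19214103 to 19217024 on the plus strand, Trgv2 at 19336573 to 19337167 on the minus strand) and 14 (Trdc at 54142851 to 54148868, plus strand). Trgc1 shared 11.1% of its stretches with Tcrg-C2 and Tcrg-C3, while Trdc shared 0.0794%, and Trgv2 and Trgv7 shared none. These are shares of exonic stretches and not of reads. How much of a count they affect is not known, since the end of the transcript that was read was not settled. Trgv7 and Trdc overlap annotated genes on the opposite strand.

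The libraries held 60706 barcodes, with 59518012 to 91818560 UMIs each, of which 60426 remained after filtering and fell into 41 clusters. Library pairs shared 22 to 44 barcode sequences. Of these, 9 clusters (19479 cells) were enterocyte-like, by at least 3 enterocyte and 3 general epithelial markers, a median of at least 2000 UMIs, no other class name and fewer than 2 mitochondrial or other technical genes among their 10 leading genes, and 4 were T or NK-like (7780 cells, of which 7207 were CD3-positive). A further 27270 of 49693 epithelial cells, most of them in clusters with a median under 1000 UMIs that held the enterocyte markers too, stayed unnamed. No Btnl gene was among the genes used for clustering, whereas Trgc1 and Trdc were. The targeted gene itself was not lower: Elavl1 stood at 28.9, 31.6 and 29.5 CPM (UMIs scaled to a total of 1000000) in control epithelium and at 30.3, 30.3 and 31.7 CPM in those labelled IE-HuR-/-. On the TMM scale it was called higher, by 0.17 in epithelial cells (edgeR, adjusted p = 0.00504) and 0.19 in enterocyte-like cells (adjusted p = 0.000797). Whether the sequenced end of the transcript lies outside the deleted part is not known here, so this count neither supports nor contradicts the labels. At the protein level, the study reported that HuR immunostaining was almost gone from small intestinal epithelial cells of IE-HuR-/- mice.

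Btnl RNA was a feature of differentiated villus epithelium. Epithelial cells held 98.2% of all Btnl1 UMIs, 98.4% of Btnl2, 98.4% of Btnl4 and 98.3% of Btnl6, and enterocyte-like cells alone held 81.1% to 83.3% of each. Over all libraries, Btnl1 stood at 239 CPM in enterocyte-like cells (95% Poisson interval 237 to 241, for counting error only), 178 CPM in tuft-like cells (168 to 190), 150 CPM in goblet-like cells (146 to 155) and 108 CPM in enteroendocrine-like cells (101 to 116). Within the enterocyte-like class, Btnl1 stood at 59.7 CPM in cluster 2 (4309 cells) and 57.9 CPM in cluster 6 (3095 cells). The other enterocyte-like clusters, of higher median UMI numbers, held 164 to 304 CPM, so the class level is mostly theirs. In control libraries the means were 244 ± 4.99 CPM in enterocyte-like, 188 ± 32.6 CPM in tuft-like, 175 ± 10.1 CPM in goblet-like and 112 ± 13.6 CPM in enteroendocrine-like cells (SD, n = 3), so that tuft-like and goblet-like cells did not differ beyond their spread. Lymphocytes and red cell precursors, which should lack Btnl1 RNA, give the level of free RNA in the droplets, which was 28.9 CPM of Btnl1 in T or NK-like and 42.6 CPM in erythroid-like cells. ISC or progenitor-like cells (35.5 CPM, 29.9 to 41.8) and PC-like cells (28.9 CPM, from 20 UMIs) lay within that pooled range. By label, the erythroid-like mean was 47.4 CPM in control and 23.9 CPM in IE-HuR-/- libraries. ISC or progenitor-like cells of IE-HuR-/- libraries held 33.3, 27.7 and 50.9 CPM. This was above the T or NK-like (21.0 to 25.5 CPM) and erythroid-like cells (20.4 to 26.2 CPM) of these libraries. Their myeloid-like cells, not epithelial either, held 22.0 to 50.9 CPM, and the control ISC or progenitor-like mean was 36.2 CPM. Btnl1 above free RNA was thus not shown in either class.

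**Figure D1:**
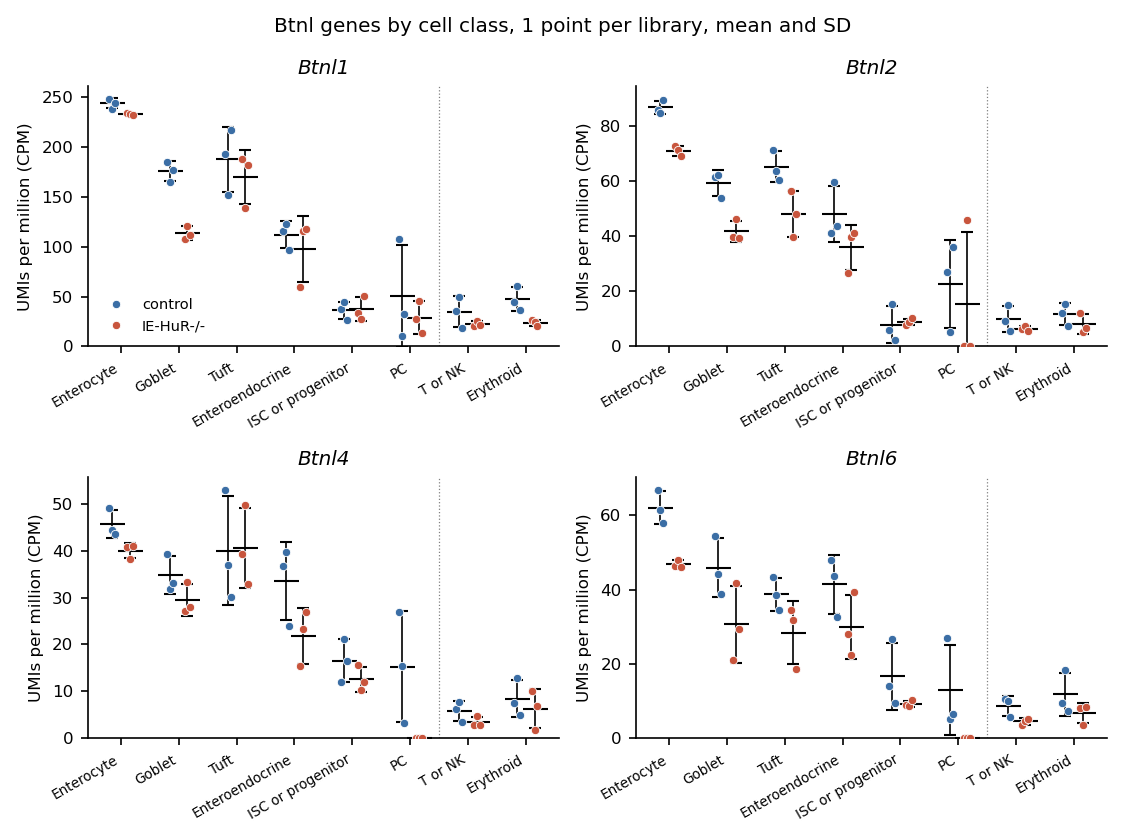
Btnl1, Btnl2, Btnl4 and Btnl6 in each cell class, in CPM (y axis), with 1 point per library (blue, control; red, IE-HuR-/-) and lines for the mean and SD of 3 libraries. The classes to the right of the dotted line show the level of free RNA. For Btnl1, enterocyte-like cells lay highest (means 244 and 233 CPM), and ISC or progenitor-like cells lay near the free RNA. Btnl4 in ISC or progenitor-like cells (14.5 CPM) lay above the free-RNA classes shown, but its counting interval overlapped that of myeloid-like cells (11.5 CPM, not shown).

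Btnl2 and Btnl6 were also highest in enterocyte-like cells, while Btnl4 in tuft-like cells (95% interval 35.3 to 46.1 CPM) could not be told from its enterocyte-like level. Btnl2 stood at 79.8 CPM in enterocyte-like, 58.2 CPM in tuft-like, 52.5 CPM in goblet-like and 43.7 CPM in enteroendocrine-like cells, against 8.26 CPM in T or NK-like cells. In the same order Btnl4 stood at 43.3, 40.4, 32.6 and 29.1 CPM against 4.62 CPM, and Btnl6 at 55.6, 34.4, 39.7 and 36.8 CPM against 6.5 CPM. In ISC or progenitor-like cells Btnl4 (14.5 CPM, 95% interval 11.1 to 18.8) lay above its erythroid-like level (8.27 CPM, 6.18 to 10.8) too. Its interval overlapped those of myeloid-like cells (11.5 CPM, 6.81 to 18.2) and B or plasma-like cells (6.95 CPM, 3.47 to 12.4), which are not epithelial either. A Btnl4 level above free RNA was thus not shown. Btnl2 and Btnl6 in ISC or progenitor-like cells could not be told from their erythroid-like levels. Because a UMI tags 1 end of a molecule, these levels compare cell classes for 1 gene and are not scaled to transcript length. Among other butyrophilin genes, Btnl9 and Btn2a2 gave 1 UMI each in all epithelial cells, and Btnl10 and Btn1a1 gave none, so the 4 members were the family members measured in this epithelium.

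In enterocyte-like cells, Btnl2 and Btnl6 were lower in the IE-HuR-/- libraries, whereas Btnl1 and Btnl4 did not pass the test. Btnl6 stood at 66.9, 61.5 and 57.9 CPM in the control libraries and at 46.4, 48.1 and 46.2 CPM in the IE-HuR-/- libraries. Btnl2 stood at 86.1, 84.9 and 89.6 CPM against 72.7, 71.3 and 69.2 CPM. For both genes every IE-HuR-/- library lay below every control library. Btnl1, the partner shared by Btnl6 and Btnl4, stood at 248, 238 and 244 CPM against 234, 233 and 232 CPM, and Btnl4 at 49.2, 44.5 and 43.6 CPM against 40.7, 38.2 and 41.1 CPM. These groups did not overlap either, but the gap was small: 50.4% of all genes tested in this class were lower without overlap on the CPM scale.

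On edgeR's TMM scale, which centres most genes near 0, Btnl6 fell by 0.26 on the log2 scale (SE 0.046, Benjamini-Hochberg adjusted p = 1.19e-05) and Btnl2 fell by 0.14 (SE 0.043, adjusted p = 0.00499) in enterocyte-like cells. Btnl1 was 0.09 higher (SE 0.039, adjusted p = 0.0593) and Btnl4 was -0.05 (adjusted p = 0.414). With 60.7% of 12481 genes called in this class, 2 of 4 members called was a share near the background. Without TMM scaling the median of all genes moved by -0.15, and Btnl1 turned to -0.06. Btnl2 missed the threshold without control replicate 3 (-0.10, adjusted p = 0.06), without IE-HuR-/- replicate 3 (-0.11, adjusted p = 0.0579) and with DESeq2 (adjusted p = 0.0635). The direction of both depended on the clusters taken: over the 2 clusters found under both labels Btnl6 was 0.13 and Btnl2 -0.04, and at a Leiden resolution of 2 they were 0.02 and 0.07. Over all epithelial cells, named or not, where 52.7% of genes were called, the same pair passed the test, Btnl2 at -0.17 (adjusted p = 0.00114) and Btnl6 at -0.24 (adjusted p = 0.00291), with Btnl1 at 0.04 and Btnl4 at -0.03. The 27270 unnamed epithelial cells did not share this pattern for Btnl6, which stood at 43.3, 37.6 and 41.3 CPM in control and 40.5, 42.0 and 44.7 CPM in IE-HuR-/- libraries. In them Btnl4 stood at 28.6, 26.1 and 24.4 CPM in control and at 31.0, 29.5 and 29.5 CPM in IE-HuR-/- libraries. Btnl2 stood at 55.7 ± 3.42 against 43.7 ± 3.87 CPM (SD, n = 3), and label differences were not tested in these cells.

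**Figure D2:**
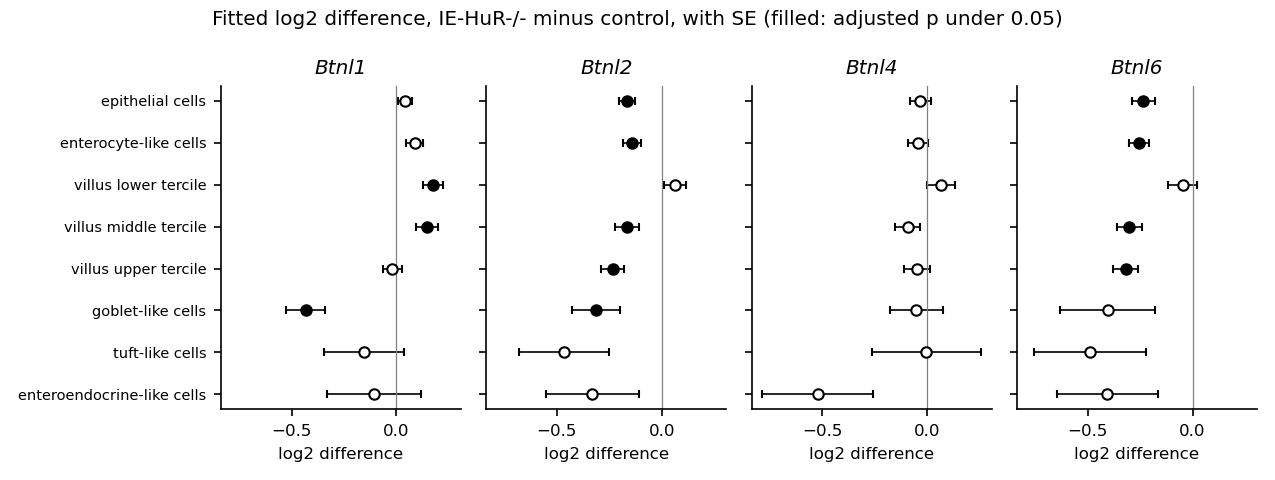
Fitted log2 difference of each Btnl gene, IE-HuR-/- minus control (x axis, TMM scale), in each epithelial class or villus tercile (rows; terciles are equal groups of enterocyte-like cells ranked from villus base to tip), with bars of 1 SE; filled points passed the adjusted p of 0.05. Btnl6 lay between -0.24 and -0.32 in all epithelial cells, enterocyte-like cells, and the middle and upper terciles, while Btnl1 was called higher in the lower and middle terciles and lower in goblet-like cells.

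A measure that needs no scaling is the number of UMIs of one Btnl gene per 100 UMIs of another in the same cells, which was added after the dependence on scaling had been seen. Relative to Btnl1, both Btnl6 and Btnl2 were lower in the IE-HuR-/- libraries. Per 100 Btnl1 UMIs there were 27.0, 25.8 and 23.7 Btnl6 UMIs in enterocyte-like cells of control libraries and 19.9, 20.6 and 19.9 in IE-HuR-/- libraries, a mean change of -5.37. Btnl2 gave 34.7, 35.6 and 36.7 against 31.1, 30.5 and 29.8, a change of -5.17, and Btnl4 gave 19.8, 18.7 and 17.9 against 17.4, 16.4 and 17.7, a change of -1.61. None of the 3 ratios overlapped between the labels (two-sided exact permutation test, p = 0.1 for each, the smallest p that 3 against 3 libraries allow, with n = 3 per label), and 43.0% of all genes were lower without overlap on the same ratio. The size depended on the clustering: the Btnl6 change was -2.53 at a Leiden resolution of 0.5 and -2.77 at 2, and the Btnl2 change was -2.89 at 2. Btnl6 was also lower relative to its near relative: per 100 Btnl4 UMIs there were 136, 138 and 133 Btnl6 UMIs in control and 114, 126 and 112 in IE-HuR-/- libraries (exact permutation p = 0.1). The share of all genes lower without overlap per 100 Btnl4 UMIs was not counted. This ratio was not taken under other clusterings.

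**Figure D3:**
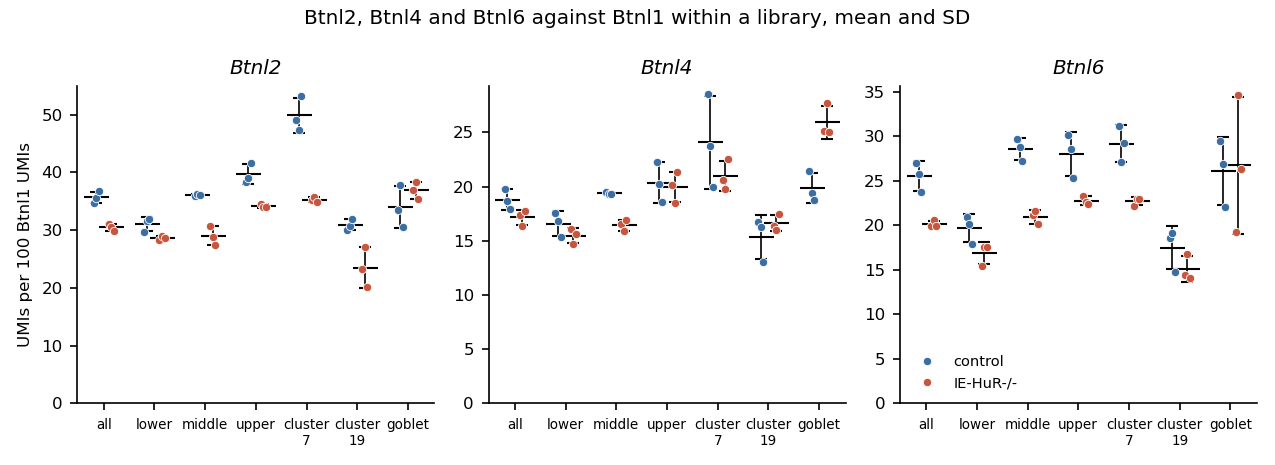
Btnl2, Btnl4 and Btnl6 UMIs per 100 Btnl1 UMIs of the same cells (y axis) in enterocyte-like cells, their villus terciles, clusters 7 and 19, and goblet-like cells, with 1 point per library and lines for the mean and SD of 3 libraries. In enterocyte-like cells the Btnl6 ratio had a mean of 25.5 in control and 20.1 in IE-HuR-/- libraries, and in goblet-like cells the Btnl4 ratio was instead the higher one in IE-HuR-/- libraries (25.9 against 19.8).

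The enterocyte-like cells of the labels sat largely in different clusters, which has to be read beside these values. Cluster 5 drew 1.65% and cluster 11 drew 2.75% of its cells from IE-HuR-/- libraries, whereas clusters 10 and 14 drew 98.9% and 99.4%. Genes that vary along the length of the small intestine differed too: Fabp6, an ileal bile acid-binding protein, stood at 684 to 770 CPM in control and 2830 to 3010 CPM in IE-HuR-/- enterocyte-like cells, and Slc40a1, the iron exporter of the proximal intestine, at 40.6 to 58.3 CPM against 12.6 to 15.7 CPM. The part of intestinal region in the Btnl differences was not tested.

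Clusters 7 and 19 were the enterocyte-like clusters with 10% to 90% of cells from each label. Within cluster 7, which was led by the villus tip gene Nt5e, Btnl2 per 100 Btnl1 UMIs was 49.1, 47.4 and 53.3 in control and 35.3, 35.8 and 34.8 in IE-HuR-/- libraries, and Btnl6 was 31.2, 27.1 and 29.2 against 22.2, 23.0 and 22.9. Within cluster 19, led by Reg1 of the lower villus, Btnl2 was 30.1, 30.8 and 31.9 against 23.3, 27.1 and 20.1, while Btnl6 overlapped (18.6, 19.1 and 14.7 against 14.4, 16.8 and 14.1, exact permutation p = 0.2). The Btnl2 ratio was lower in both clusters, where 40.8% (cluster 7) and 8.3% (cluster 19) of all genes were lower without overlap on this ratio. Both shares were taken over the genes tested in all enterocyte-like cells. IE-HuR-/- libraries gave 1612 cells to cluster 7 and 182 to cluster 19. Btnl1 itself moved in opposite directions in the 2 clusters, with 139, 144 and 151 CPM against 180, 174 and 165 CPM in cluster 7, and 266, 249 and 253 CPM against 174, 205 and 203 CPM in cluster 19. A lower Btnl1 raises this ratio for every other gene, so the 2 shares are not alike as a background. In cluster 7 Btnl6 overlapped in CPM (43.2, 39.0 and 44.2 against 39.9, 40.0 and 37.7), so its lower ratio there is not by itself a lower Btnl6 level. Btnl2 did not overlap there (68.0, 68.3 and 80.6 against 63.4, 62.3 and 57.4 CPM). In cluster 19 both genes were lower in CPM without overlap, Btnl2 at 76.5 or more against 55.6 or less, and Btnl6 at 37.3 or more against 34.4 or less. The share of all genes lower without overlap in CPM was not counted within cluster 7 or 19. With both clusters pooled the Btnl2 ratio differed by -1.95 and overlapped between the labels (35.2 against 33.3, exact permutation p = 0.3). In this pool, in which cluster 7 made up more of the IE-HuR-/- cells (66.6% of cluster 7 and 18.3% of cluster 19 came from IE-HuR-/- libraries), the Btnl6 ratio differed by 1.26 in the other direction and overlapped between the labels (exact permutation p = 0.3).

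Enterocytes change their program as they move from the villus base to its tip, and enterocyte-like cells were ranked within each library by 9 tip genes minus 9 bottom genes, none of them a Btnl gene. The ranking was checked with genes outside the score: Enpp3, a tip gene, stood at 191 to 226 CPM in the lower and 1910 to 2110 CPM in the upper tercile of control libraries. The terciles need not mark equal positions under both labels, since Enpp3 in the lower one was 94.4 to 120 CPM in IE-HuR-/- libraries and since different clusters made up the terciles. All 4 Btnl genes were higher in the upper than in the lower tercile of control libraries on the TMM scale, Btnl6 by 0.79 on the log2 scale, Btnl2 by 0.64, Btnl4 by 0.58 and Btnl1 by 0.29 (SE 0.033 to 0.048, edgeR with the library as a block, adjusted p at most 1.13e-10), among 78.4% of genes called. Btnl1 turned to -0.06 without TMM scaling, where the median of all genes moved by -0.34. On the CPM scale all 4 were highest in the middle tercile.

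Btnl6 stood at 46.5 ± 4.94 CPM in the lower, 78.6 ± 4.04 CPM in the middle and 63.6 ± 4.84 CPM in the upper tercile of control libraries (SD, n = 3), and at 41.3 ± 3.18, 58.1 ± 1.49 and 44.0 ± 2.15 CPM in IE-HuR-/- libraries. Btnl2 stood at 73.3 ± 0.83, 99.3 ± 1.17 and 90.3 ± 5.41 CPM in control and at 70.2 ± 0.86, 80.4 ± 4.06 and 66.1 ± 2.65 CPM in IE-HuR-/- libraries. The gap between the labels for these genes was thus smallest in the lower tercile. Btnl1 stood at 236 ± 9.25, 275 ± 4.32 and 227 ± 4.66 CPM in control and at 245 ± 0.133, 277 ± 3.12 and 193 ± 7.14 CPM in IE-HuR-/- libraries, and its groups were apart in the upper tercile alone. Btnl4 stood at 39.2 ± 3.98, 53.3 ± 1.19 and 46.2 ± 3.96 CPM against 37.8 ± 1.68, 45.5 ± 1.8 and 38.6 ± 1.51 CPM.

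**Figure D4:**
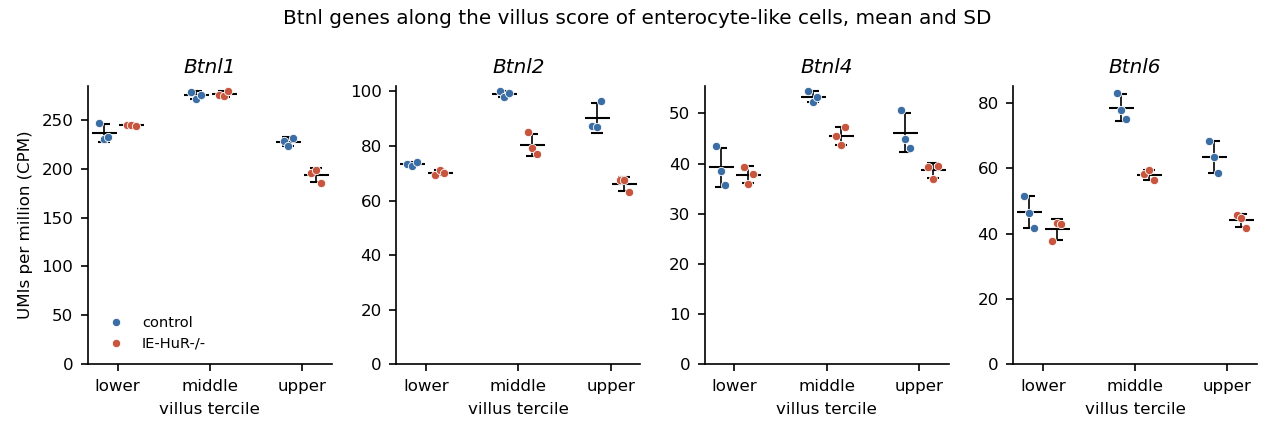
Btnl1, Btnl2, Btnl4 and Btnl6 in CPM (y axis) in the lower, middle and upper terciles of enterocyte-like cells (x axis), with 1 point per library (blue, control; red, IE-HuR-/-) and lines for the mean and SD of 3 libraries. All 4 genes had their highest mean in the middle tercile. In the upper tercile the label means were 63.6 (control) against 44.0 CPM for Btnl6 and 90.3 against 66.1 CPM for Btnl2. Btnl1, the most abundant, stood there at 227 against 193 CPM, with a fitted log2 difference of -0.02 (edgeR, adjusted p = 0.719).

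In the fits, Btnl6 and Btnl2 were lower in the middle tercile (-0.30, adjusted p = 0.000182, and -0.17, adjusted p = 0.0196) and the upper tercile (-0.32, adjusted p = 6.01e-06, and -0.23, adjusted p = 0.00018), and neither passed the test in the lower tercile (-0.05 and 0.06). Btnl1 was higher in the lower tercile (0.17, adjusted p = 0.00369) and the middle tercile (0.14, adjusted p = 0.0205), and was -0.02 in the upper tercile. Btnl4 passed in none. The share of genes called was 45.8% in the lower, 51.9% in the middle and 58.4% in the upper tercile, and 52.5% of genes in the upper tercile were lower without overlap on the CPM scale, as all 4 members were. Whether the label difference itself changed with position was tested as an interaction: it was more negative in the upper than in the lower tercile by 0.30 for Btnl2 (adjusted p = 0.000179), by 0.28 for Btnl6 (adjusted p = 0.00267) and by 0.20 for Btnl1 (adjusted p = 0.000905), while Btnl4 gave -0.12 (adjusted p = 0.22). The interaction had a median of -0.07 over all genes tested in edgeR. It was called for 27.8% of genes in edgeR, and for none of the 4 members in DESeq2 (Btnl2 adjusted p = 0.112). Relative to Btnl1, both genes were lower in every tercile: the Btnl6 ratio changed by -2.77, -7.59 and -5.23 per 100 Btnl1 UMIs in the lower, middle and upper tercile, and the Btnl2 ratio by -2.36, -7.01 and -5.53 (exact permutation p = 0.1 for each). On the same ratio 45.6%, 42.9% and 29.9% of all genes were lower without overlap in the lower, middle and upper tercile.

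Goblet-like cells, the mucus-secreting class, differed from enterocyte-like cells in that Btnl1 was called lower. Btnl1 stood at 185, 165 and 177 CPM in control and at 108, 121 and 112 CPM in IE-HuR-/- libraries, and Btnl2 at 61.7, 62.4 and 54.1 CPM against 39.9, 46.3 and 39.5 CPM. Both groups were apart, as were 38.0% of genes lower without overlap in this class. Btnl1 fell by 0.43 on the log2 scale (SE 0.093, adjusted p = 0.000958) and Btnl2 fell by 0.31 (SE 0.114, adjusted p = 0.0399), with 29.9% of genes called. The call on Btnl2 was lost with DESeq2 (adjusted p = 0.189) and without 4 of the 6 libraries in turn (adjusted p up to 0.171, without control replicate 2). Btnl6 was -0.41 (adjusted p = 0.218) with a wide spread among the IE-HuR-/- libraries (20.9, 41.7 and 29.3 CPM) and passed when the second of them was left out (-0.67, adjusted p = 0.00639), and Btnl4 was -0.05. A Btnl1 UMI was found in 52.5% of goblet-like cells in control and 32.5% in IE-HuR-/- libraries (exact permutation p = 0.1). With each cell thinned to the same UMI number, the shares were 9.93% and 7.49% and overlapped (exact permutation p = 0.4). Free Btnl1 RNA was 47.4 against 23.9 CPM in erythroid-like cells, without overlap. In T or NK-like cells it was 34.6 against 22.8 CPM and overlapped. The part of free RNA in the goblet-like difference was not tested. Whether the goblet-like and enterocyte-like differences of Btnl1 differ was not tested either.

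Tuft-like and enteroendocrine-like cells, 239 and 388 in all, gave no called member, among 0.842% and 1.73% of genes called. In tuft-like cells Btnl1 stood at 193, 152 and 217 CPM against 188, 139 and 182 CPM and Btnl2 at 71.5, 63.9 and 60.5 CPM against 56.4, 39.6 and 48.0 CPM (-0.47, adjusted p = 0.49). In enteroendocrine-like cells Btnl1 stood at 116, 123 and 96.6 CPM against 59.8, 116 and 118 CPM. DESeq2 called none either, and 1 of 4 members in tuft-like and 0 of 4 in enteroendocrine-like cells were under an unadjusted p of 0.05 in edgeR. With SEs of 0.191 to 0.267 on the log2 scale, differences of the size seen in enterocyte-like cells were not detectable there.

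The genes around the Btnl members were read from lists chosen with earlier results of these data known. Of 8 intestinal transcription factors, 2 were higher, 3 were lower and 3 were not called in enterocyte-like cells, where 60.7% of all genes were called (median -0.02, against -0.03 over all genes tested). Cdx2, a homeobox factor of intestinal identity, fell by 0.57, Smad4 rose by 0.36 and Hnf4a rose by 0.33. Hnf4g, the paralogue of Hnf4a with which it shares binding sites, stood at 205, 178 and 173 CPM in control and 148, 155 and 153 CPM in IE-HuR-/- libraries and fell by 0.14 (adjusted p = 0.0172). In the upper tercile, where 52.5% of genes were lower without overlap on the CPM scale, its levels were 108, 94.4 and 90.9 CPM against 59.1, 64.1 and 62.7 CPM. A link between these factors and the Btnl genes was not tested.

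Of 11 epithelial signals to intraepithelial lymphocytes, 6 were higher, 4 were lower and 1 was not called (median 0.24, against -0.03 over all genes, 60.7% of which were called). Cd274, an inhibitory ligand, rose by 2.04, the cytokine Il7 by 0.65 and the junction protein Ocln by 0.50. Il15ra, which presents IL-15 to intraepithelial lymphocytes, fell by 0.77, and the other lower ones, H2-T3, Ccl25 and Il15, are named after their values had been seen. Il15ra stood at 9.11 to 9.35 CPM in control and 4.38 to 5.67 CPM in IE-HuR-/- libraries. Of 6 regional genes, 5 were tested, and against the same 60.7% 2 were higher (Fabp6 by 2.15 and Slc10a2 by 1.37) and 2 lower (Slc40a1 by -1.66 and Onecut2 by -0.29).

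The pattern of Btnl1 over the 18 sums of villus tercile and library was most like that of Galnt1, Hook2, Cobl, Rmdn3 and Gda among 2552 genes of at least 50 CPM, with Pearson's r of log2(CPM + 1) between 0.938 and 0.946. The other members were less alike, with r = 0.61 for Btnl2 and 0.56 for Btnl6. Hnf4g stood at r = 0.765 (rank 168) and Hnf4a at r = -0.438. The 18 sums share 6 libraries and a common scale, and the values are descriptions.

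The receptor genes were found where the markers of T cells were. T or NK-like cells held 94.4% of Trdc, 94.7% of Trgc1, 96.0% of Trgv2 and 94.5% of Trgv7 UMIs. Of the 4 T or NK-like clusters, the largest (4039 cells), led by Gzma and Ccl5, held the highest levels of Trdc (776 CPM), Trgc1 (841 CPM) and Trgv7, with 11.9 CPM of Cd8b1, the CD8 beta chain of conventional CD8 T cells. The next (1801 cells), led by Xcl1 and Cd160, had 434 CPM of Trdc and 168 CPM of Cd8b1. Trgv2 differed less between them (385 and 352 CPM). All members were lower in a cluster of low UMI numbers (median 1712), with 188 CPM of Trdc and 223 CPM of Trgv2, except Trgv7 (21.3 CPM), which was above the 12.3 CPM of the Xcl1 and Cd160 cluster.

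CD3-positive barcodes showed no called difference in the level of any receptor gene. Trdc stood at 667, 576 and 837 CPM in control and at 618, 552 and 650 CPM in IE-HuR-/- libraries. Trgc1 stood at 712, 630 and 818 CPM against 660, 622 and 676 CPM. Trgv7, the segment of the receptor that recognises Btnl1 with Btnl6, stood at 28.4, 20.7 and 23.8 CPM against 22.3, 14.6 and 21.0 CPM, and Trgv2 at 426, 342 and 371 CPM against 354, 360 and 349 CPM. The labels overlapped for all 4 genes. Log2 differences were -0.37 for Trgv7 (SE 0.161, adjusted p = 0.263), -0.21 for Trdc (SE 0.117, adjusted p = 0.428), -0.16 for Trgc1 (SE 0.072, adjusted p = 0.263) and -0.12 for Trgv2 (SE 0.074, adjusted p = 0.444), among 3.9% of genes called. In edgeR 2 of the 4, Trgv7 and Trgc1, were under an unadjusted p of 0.05, and DESeq2 called none. Without control replicate 2, Trdc (-0.31, adjusted p = 0.0492) and Trgc1 (-0.23, adjusted p = 0.0494) passed the edgeR threshold. With each library left out in turn, Trdc ranged from -0.31 to -0.07 and Trgc1 from -0.23 to -0.08.

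A smaller share of CD3-positive barcodes held a Trdc UMI in the IE-HuR-/- libraries. The share was 62.1%, 58.2% and 64.9% in control and 47.7%, 46.3% and 50.3% in IE-HuR-/- libraries, a difference of -13.6 percentage points with no overlap (exact permutation p = 0.1, n = 3 per label). Trgc1 was found in 63.1%, 61.4% and 66.0% against 55.7%, 53.9% and 57.2%, a difference of -7.87 points (exact permutation p = 0.1). After each barcode had been thinned to 1000 UMIs, which left 7158 of 7207 barcodes, the differences were smaller, from 38.1% to 31.5% for Trdc and from 38.9% to 34.1% for Trgc1, and the labels still did not overlap (exact permutation p = 0.1 for each). The shares with Trgv7 (10.1% and 8.02%, exact permutation p = 0.3) and Trgv2 (63.9% and 61.3%, exact permutation p = 0.4) overlapped. How many of all genes had shares that did not overlap between the labels was not counted, here or in the comparisons of shares below. In this family 4 shares were compared, and 3 against 3 libraries cannot give a p below 0.1, so no adjustment could bring one under 0.05. In enterocyte-like cells of the same libraries, which should lack these genes and had a median of 8547 UMIs against 4552 in CD3-positive barcodes, 2.06% of cells held a Trdc UMI, 2.29% Trgc1, 1.0% Trgv2 and 0.103% Trgv7, so that the shares in CD3-positive barcodes stood far above free RNA.

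**Figure D5:**
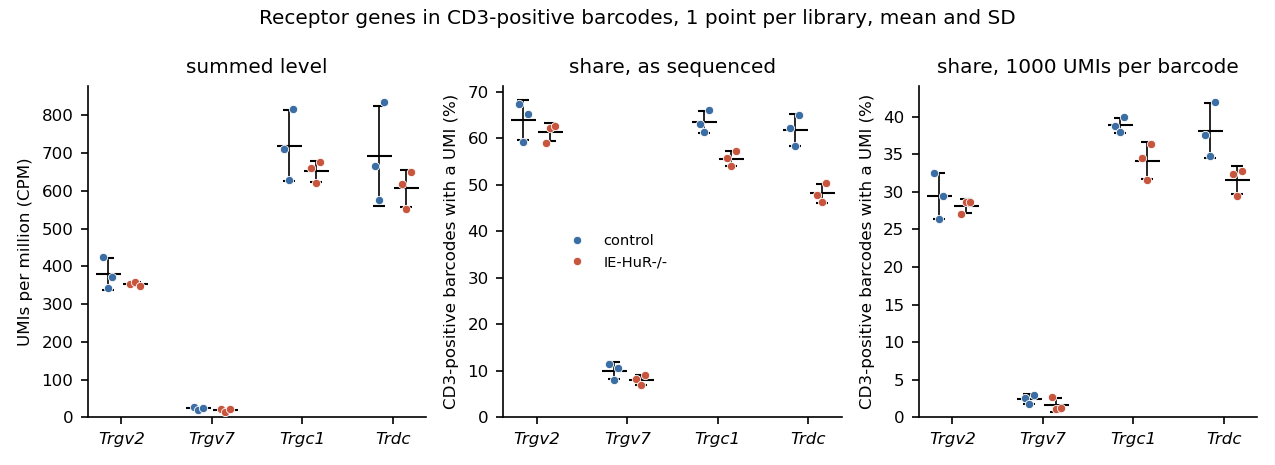
Trgv2, Trgv7, Trgc1 and Trdc in CD3-positive barcodes, as summed CPM (left), as the share of barcodes with at least 1 UMI (middle) and as that share after thinning to 1000 UMIs (right), with 1 point per library and lines for the mean and SD of 3 libraries. Levels overlapped between the labels, while the Trdc share, with means of 61.7% and 48.1%, did not.

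With any barcode that held a CD3 UMI, in any cluster, the Trdc difference was -5.1 points and overlapped (exact permutation p = 0.2). The share of all cells gives the other side of these numbers. CD3-positive barcodes were 9.68 ± 1.55% of all cells in control and 14.9 ± 0.856% in IE-HuR-/- libraries (SD, n = 3, exact permutation p = 0.1), and Trdc-positive barcodes were 5.97 ± 0.97% and 7.18 ± 0.569% (exact permutation p = 0.2). Barcodes with a beta chain constant UMI (Trbc1 or Trbc2) and no Trdc UMI rose from 30.9% to 44.3% of CD3-positive barcodes without overlap (exact permutation p = 0.1), and those with Trdc and no beta chain were 4.82% and 4.41%. Barcodes with both fell from 56.9% to 43.7%, and a Trbc2 UMI was found in 80.0% and 80.7%. The rise thus restates the lower Trdc share and is not a separate observation. Cd8b1, found in 3.33% and 13.4% of CD3-positive barcodes, and Cd4, found in 1.49% and 5.82%, mark conventional T cells and were each found in a larger share. The epithelial suspension was made from small intestinal mucosal tissue with EDTA and TrypLE. These shares therefore describe the suspension, and the number of lymphocytes in the tissue was not measured.

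Trdc-positive barcodes numbered 3895, and most also held alpha-beta receptor RNA, with Trbc2 in 85.6% and Trac in 60.4% of them. The genes that went with Trdc, by the mean ratio over Trdc-negative barcodes and higher in all 6 libraries, were Trgc1 (log2 2.37), the gamma segment gene Tcrg-V1 (0.75), the integrin Itgad (0.72), Car2 (0.72), the receptor tyrosine kinase Kit (0.66), Tnfrsf9 (0.66), Spp1 (0.65), the CD3 zeta chain Cd247 (0.65), Cd200r2 (0.64) and Nr4a2 (0.64). Lower in all 6 libraries were Trac (-0.82), Trbc2 (-0.55) and Trbc1 (-0.47), the alpha-beta constant genes. Of 730 Trgv7 UMIs in CD3-positive barcodes 653 lay in Trdc-positive ones, whereas 4446 of 12473 Trgv2 UMIs lay in Trdc-negative ones. Trgv7 shared its barcode with Trgc1 in 587 of 638 cases, and with a Trgv2 UMI in 484. Since clustering and thus the choice of CD3-positive barcodes used Trgc1 and Trdc, these are descriptions.

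Within Trdc-positive barcodes the other receptor genes did not differ between the labels by the test. Trgv7 stood at 38.7, 28.3 and 29.8 CPM against 40.6, 23.9 and 33.7 CPM (log2 -0.04, SE 0.182, adjusted p = 0.943), Trgv2 at 436, 346 and 394 CPM against 419, 399 and 391 CPM (0.00) and Trgc1 at 966, 882 and 1050 CPM against 1130, 1010 and 1090 CPM (0.12, adjusted p = 0.4), among 1.31% of genes called. None was under an unadjusted p of 0.05, and DESeq2 called none. Trgv7 per 100 Trgc1 UMIs was 4.01, 3.21 and 2.84 against 3.58, 2.37 and 3.1 (exact permutation p = 0.5). A Trgc1 UMI was found in 82.2% of Trdc-positive barcodes in control and 87.4% in IE-HuR-/- libraries (exact permutation p = 0.1).

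Other genes of these cells were read from the lists chosen as above. Of all genes tested by edgeR, 3.9% were called in CD3-positive and 1.31% in Trdc-positive barcodes. In CD3-positive barcodes, 0 of 9 other gamma and delta chain genes tested by edgeR were called (median -0.08, against 0.00 over all genes; 1 was under an unadjusted p of 0.05, Tcrg-V1 at -0.59, and DESeq2 called that gene alone), and of 3 alpha and beta chain genes Trac rose by 0.32. Of 15 intraepithelial lymphocyte genes, Cd8b1 rose by 2.05, Itgb7, an integrin chain that retains lymphocytes in the epithelium, rose by 0.46, while Fcer1g, a signalling chain of innate-like lymphocytes, fell by 0.43 and Il2rb, a subunit of the IL-2 and IL-15 receptors, fell by 0.36, and the fifth called gene, the gut-homing receptor Ccr9 (0.33), is named after its value had been seen. DESeq2 kept these calls for the others and gave an adjusted p of 0.055 for Ccr9. Of 10 signalling and activation genes, the kinase Syk rose by 1.14, Ifng rose by 1.08 and Jaml, the costimulatory partner of Cxadr, rose by 0.29, of which DESeq2 called Ifng alone (adjusted p = 0.0917 for Syk and 0.072 for Jaml). In Trdc-positive barcodes Cd8b1 rose by 2.61 and Itgb7 rose by 0.36, and Fcer1g fell by 0.29, the call on Itgb7 being lost with DESeq2 (adjusted p = 0.159), whereas none of the 9 signalling genes tested was called by edgeR (4 were under an unadjusted p of 0.05, and DESeq2 called none). None of the 3 type 17 gamma-delta genes tested by edgeR was called in CD3-positive barcodes (none was under an unadjusted p of 0.05, and DESeq2 called none). Enterocyte RNA in the same barcodes moved with the labels as well: Btnl6 stood at 9.72, 9.93 and 5.46 CPM in control against 3.29, 4.53 and 5.02 CPM and was called lower by edgeR (-1.01, adjusted p = 0.0464) but not by DESeq2 (adjusted p = 0.147), and the sucrase gene Sis stood at 330, 407 and 183 CPM against 178, 187 and 209 CPM, and the part of such RNA in the lymphocyte values was not tested.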

How the data were processed

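Small intestinal mucosa of 3 control and 3 IE-HuR-/- mice was sequenced as droplet libraries. The deposited values are raw UMI counts per gene and barcode, which the authors made with Cell Ranger (6.1.2 per the file headers) on mm10 per the labels. The labels name a 5′ kit and the study's methods a 3′ kit, and the end read was not settled here. No other column was used.

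Barcodes with at least 200 genes were kept. A doublet caller marked 5 of 60431 (0.00827%) and had not worked, so removal of the 4829 highest scores (8%) was an alternative. Cells were clustered with scanpy 1.11.5 (2000 variable genes, 50 components, Leiden resolution 1) and clusters named from markers; the limits for enterocyte-like and low-UMI clusters were set after the clusters had been seen. UMIs were summed per library and class and tested with edgeR 4.0.16 (TMM, quasi-likelihood, Benjamini-Hochberg over all genes tested, threshold 0.05) in R 4.3.3, with DESeq2 1.42.0 as an alternative. Position used enterocyte-like cells of at least 2000 UMIs, and the library was a block. Nothing ties replicates to more than separate samples, so p-values measure the spread between these libraries. Intervals cover counting error only. Code was tested on simulated data.

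The members and lists were chosen with earlier results of these data known. The rule for names took the 8 members, at most 4 called genes of each list by size of change, the 5 genes most like Btnl1 and the 10 that went with Trdc. The other alternatives were scaling, the filter on low counts, cell filters, clustering, a gate, and leaving out each library.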

Additional observations from a re-analysis of the deposited data

Results flagged for a closer look

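The label difference in enterocyte-like cells differed between the upper and the lower villus tercile for 3 Btnl genes in a test of the difference itself (edgeR, interaction of label and tercile, library as a block). Against a median of -0.07 over all genes tested, the upper minus the lower difference was -0.30 for Btnl2, -0.28 for Btnl6 and -0.20 for Btnl1 on the log2 scale. DESeq2 called none of them, with -0.21 for Btnl2 (adjusted p = 0.112), -0.19 for Btnl6 (adjusted p = 0.3) and -0.11 for Btnl1 (adjusted p = 0.26).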

How the results depend on the processing

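Of the alternative values of the main results, 88 of 102 from leaving out a library and 103 of 115 others stayed within the limits set for them. Of the member values, 267 of 300 and 356 of 415, in the same order, kept direction and, for fitted values, side of the threshold. The ratios to Btnl1 are among these values and were judged by direction alone. The cause of the changes was not tested.

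Without TMM scaling Btnl1 was -0.10 in epithelial cells, -0.06 in enterocyte-like cells and -0.06 for position, Btnl2 and Btnl4 were each -0.06 in the lower tercile, Btnl4 was 0.01 in tuft-like cells and Trgv2 0.04 in Trdc-positive barcodes. With a gate Btnl4 was 0.01 in epithelial and 0.01 in enterocyte-like cells. At Leiden resolution 0.5 Btnl1 was -0.09, and at 2 Btnl2 was 0.07, Btnl4 0.14 and Btnl6 0.02 in enterocyte-like cells. In clusters found under both labels, chosen after seeing the data, Btnl4 was 0.26 and Btnl6 0.13. Btnl1 in the upper tercile was 0.01 with DESeq2, 0.00 with 1 pair of limits for all libraries and 0.03 with bottom genes alone. Btnl4 in tuft-like cells was 0.01 with DESeq2, 0.03 with the replicate block and 0.02 with at least 500 genes. The Btnl4 ratio to Btnl1 differed by 0.651 at Leiden resolution 0.5 and 2.91 in shared clusters, and the Btnl6 ratio by 1.26 there.

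Counts of called genes moved from 60 to 195 without the low-count filter and 121 with the block in tuft-like cells, and from 159 to 490 without the filter, 89 with at least 500 genes and 61 without the highest doublet scores in enteroendocrine-like cells. They moved from 450 to 996 without the filter and 2428 with any CD3 UMI in CD3-positive barcodes, from 142 to 498, 225 without the highest doublet scores and 26 with any CD3 UMI in Trdc-positive barcodes, and from 3277 to 1740 with DESeq2 for the interaction. With any CD3 UMI, Trgv2 was 0.03 and its share differed by 1.84 points. Within Trdc-positive barcodes, at least 2 Trdc UMIs gave 0.02 for Trgv2 and 0.05 for Trgv7, the block 0.00 for Trgv2, and leaving out the low-UMI T or NK-like cluster 0.02 for Trgv7.

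Leaving out each library in turn gave Btnl4 from -0.08 to 0.03 in epithelial, -0.06 to 0.02 in enterocyte-like, -0.14 to 0.05 in goblet-like and -0.17 to 0.24 in tuft-like cells and -0.09 to 0.02 in the upper tercile. Btnl6 in the lower tercile ranged from -0.12 to 0.01, and Btnl1 from -0.05 to 0.01 in the upper tercile and -0.26 to 0.13 in enteroendocrine-like cells. Trgv2 ranged from -0.06 to 0.08 and Trgv7 from -0.20 to 0.14 in Trdc-positive barcodes. Counts ranged from 75 to 197 in enteroendocrine-like cells, 143 (without IE-HuR-/- replicate 3) to 1181 (without control replicate 3) in CD3-positive and 41 to 470 (the same libraries) in Trdc-positive barcodes.

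Replicate numbers did not pair the samples: same-numbered libraries correlated at 0.134, -0.21 and 0.561 in epithelial cells, 0.106, -0.248 and -0.025 in enterocyte-like cells and 0.209, 0.138 and -0.111 in CD3-positive barcodes, where not every library correlated best with its own number. In Trdc-positive barcodes they were 0.33, 0.227 and 0.054, and every library correlated best with its own number, which is a hint from the data and not from the design. With the block, 7578 genes were called in enterocyte-like cells, 7089 in epithelial cells, 394 in CD3-positive and 183 in Trdc-positive barcodes, and Btnl6 passed in goblet-like cells (-0.41, adjusted p = 0.00909).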
